A study of Saccharomyces cerevisiae with 24 samples.

Results

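The genes RPL1 to RPL30 encode proteins of the large subunit of the cytosolic ribosome of Saccharomyces cerevisiae. The 53 members were taken by name, RPL1A to RPL30, from the 6696 genes in the deposited gene tables, and all 53 were found in both kinds of file and passed the filters on low values. They form 30 families, of which 23 are pairs of paralogs and 7 are single genes (RPL3, RPL5, RPL10, RPL25, RPL28, RPL29 and RPL30). Their coding sequences run from 59 to 387 codons with a median of 184 codons, against a median of 359 codons over all genes.

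Ribosomal proteins are made by free cytosolic ribosomes, are imported into the nucleus, and join the pre-ribosome there or, for a few late proteins, in the cytoplasm. In yeast most of them are encoded by gene pairs left from a genome duplication, many carry an intron near the start codon, and their transcription is driven together by Rap1, Fhl1, Ifh1 and Sfp1 in growing cells. Hel2 is a ubiquitin ligase that binds collided ribosomes and marks them for ribosome quality control. Srp72 is a protein of the signal recognition particle (SRP), which binds ribosomes that translate secretory and membrane proteins and docks them at the endoplasmic reticulum.

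The study sequenced RNase I footprints, the mRNA fragments covered by ribosomes, from 24 libraries in 12 groups of 2 replicates. Each group is an immunoprecipitate of tagged Hel2 (IP) or the matched total ribosomes (input), from the membrane fraction, solubilised with Triton X-100, or from the cytosolic fraction of cells grown in YPD at 30 °C. Every strain was MATa with the background alleles ade2 his3 leu2 trp1 ura3 can1 and carried HEL2-FTP::natNT2, the tagged HEL2 gene. Libraries labelled GIT1p came from srp72::HISMX6 cells carrying pRS415-GIT1p-SRP72-V5, in which the GIT1 promoter drives V5-tagged SRP72 from a plasmid. Libraries labelled SRP72p came from the same deletion with pRS415-SRP72p-SRP72-V5, in which SRP72 has its own promoter. The labels list neither the deletion nor a plasmid for the HEL2-FTP libraries. The labels do not say that replicates came from separate cultures, so p-values measure only the spread between these samples.

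The 8 HEL2-FTP libraries were deposited as reads per 1000000 (RPM) per codon, so their depth is unknown, and the 16 others as counts per gene with totals of 2015928 to 13093023. A count of 3 corresponded to 0.229 to 1.49 counts per 1000000 (CPM), and members had 41 to 41380 counts per library. Footprint levels depend on both the mRNA level and the ribosomes per mRNA, and these cannot be told apart here. The marker genes did not follow the strain labels throughout. LEU2, the marker of both plasmids, averaged 1982 CPM in the GIT1p cytosolic inputs and 65.1 CPM in the SRP72p cytosolic inputs. It averaged 34.1 RPM in the HEL2-FTP cytosolic inputs, for which no plasmid is listed. HIS3, a mutant gene of the strain background, averaged 27.2 CPM in the GIT1p and 551.6 CPM in the SRP72p cytosolic inputs. TRP1, another mutant gene of the background, averaged 2.00 CPM in the GIT1p and 78.1 CPM in the SRP72p cytosolic inputs. SRP72 itself averaged 375 ± 10.1 CPM in libraries labelled GIT1p and 142 ± 0.517 CPM in those labelled SRP72p (cytosolic inputs, SD, n = 2 each). HEL2 footprints were higher in the IPs than in the inputs of the HEL2-FTP strain, at 431 ± 10.1 RPM against 100 ± 2.80 RPM in the cytosol, but were 65.6 CPM in the GIT1p cytosolic IPs against 81.7 CPM in the inputs. The membrane label held in the inputs: 10 membrane and secretory markers summed to 11566 to 12012 RPM in HEL2-FTP membrane inputs and to 875 to 1041 RPM in the cytosolic inputs. Their sum was also higher in the membrane inputs of GIT1p and SRP72p. In the IPs it was higher at the membrane for HEL2-FTP and SRP72p. The GIT1p IPs went the other way, with 8131 to 8680 CPM at the membrane and 9796 to 11148 CPM in the cytosol. Among the count libraries the 2 SRP72p membrane inputs differed from each other more than any other replicates. All 53 members were lower in the first of them, by a median log2 ratio of -0.32. LEU2 had 127 CPM in the first SRP72p membrane input and 33.9 CPM in the second.

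The 53 members made up a smaller part of the footprints bound by Hel2 than of total footprints in every strain and fraction. In the HEL2-FTP membrane fraction they took 4.34% and 4.59% of all footprints in the IPs, against 6.95% and 7.18% in the inputs. In the HEL2-FTP cytosol they took 4.61% and 4.98% in the IPs, against 8.15% and 8.64% in the inputs. As a ratio of IP to input, the share was lower still in the libraries labelled GIT1p and SRP72p. These are called the plasmid strains here by their labels alone, and they also differ from HEL2-FTP in the kind of file deposited. Members took 1.78% and 1.73% in the GIT1p membrane IPs, against 4.78% and 4.81% in the inputs, and 1.97% and 1.89% in the GIT1p cytosolic IPs, against 5.78% and 5.94% in the inputs. They took 2.91% and 2.94% in the SRP72p membrane IPs, against 5.71% and 7.15% in the inputs, and 2.26% and 2.59% in the SRP72p cytosolic IPs, against 7.70% and 8.22% in the inputs. No IP library overlapped an input library of its strain and fraction. The 95% Wilson interval of a share reached at most 0.0286 percentage points to either side in the count libraries and covers counting error only.

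**Figure D1:**
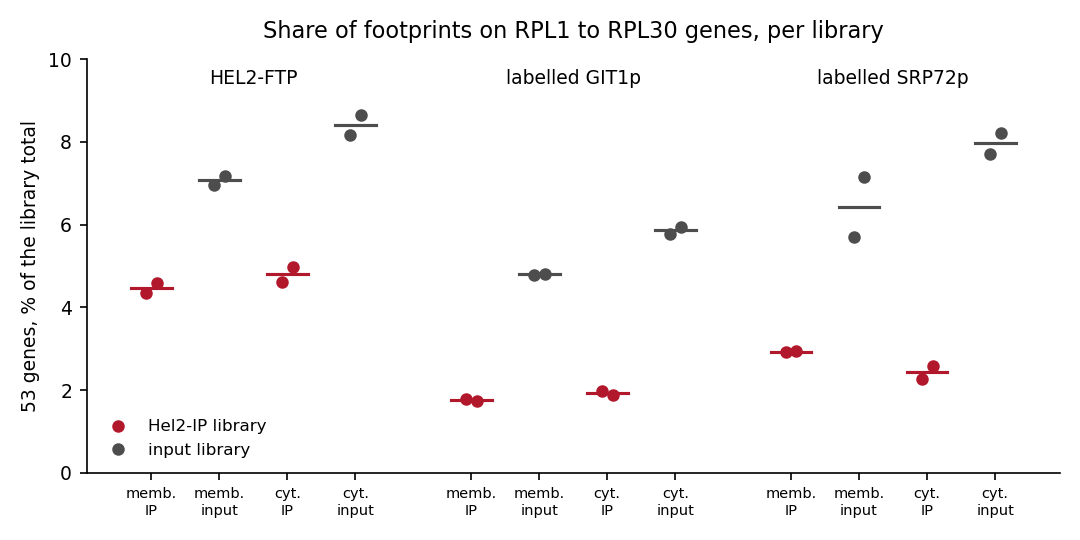
Share of all footprints (percent, y axis) that fell on the 53 RPL1 to RPL30 genes, one point per library, with IP left of input within each strain and fraction and bars at the group means. Every IP point lies below both of its inputs, from 1.73% to 4.98% in IPs and from 4.78% to 8.64% in inputs.

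The same held gene by gene. Each gene was tested between IP and input with limma on log2(RPM + 0.5) in the HEL2-FTP strain (5531 genes) and with edgeR's quasi-likelihood test on counts in the plasmid strains (5714 genes). A gene was called at a Benjamini-Hochberg adjusted p below 0.05 over all genes tested. In the HEL2-FTP membrane fraction 49 of 53 members were lower in the IPs and 2 higher, where 43% of all genes were called lower and 45.4% higher. In the HEL2-FTP cytosol 50 were lower and 2 higher, where 35.7% of all genes were called lower and 53.7% higher. In the plasmid strains no member was called higher, where 25% to 37.2% of all genes were (25% and 36.3% in the GIT1p membrane and cytosolic fractions, 26.9% and 37.2% in the SRP72p ones). There 51 members were lower in the GIT1p membrane fraction (37.5% of all genes), 51 in the GIT1p cytosol (33.5%), 51 in the SRP72p membrane fraction (33.7%) and 53 in the SRP72p cytosol (31.4%). The SRP72p membrane count was also 51 without either one of the 2 inputs that differ.

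The members' median log2 change was -0.88 in the HEL2-FTP membrane fraction, against 0.02 over all genes tested. It was -1.18 against 0.34 in the HEL2-FTP cytosol, -1.27 against -0.24 in the GIT1p membrane fraction and -1.51 against -0.04 in the GIT1p cytosol. It was -1.19 against -0.15 in the SRP72p membrane fraction and -1.89 against 0.11 in the SRP72p cytosol. In all 6 comparisons, 49 members were called lower, and 51 had a value below 0 in all 6. The 4 members outside the 49 were RPL4A, RPL4B, RPL6B and RPL17A. The share of all genes called lower, or below 0, in all 6 was not computed. With the copies of each pair summed, 29 families were lower and 1, RPL4, was higher in both HEL2-FTP fractions, 29 were lower in each of the GIT1p fractions and the SRP72p membrane fraction, and 30 in the SRP72p cytosol.

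**Figure D2:**
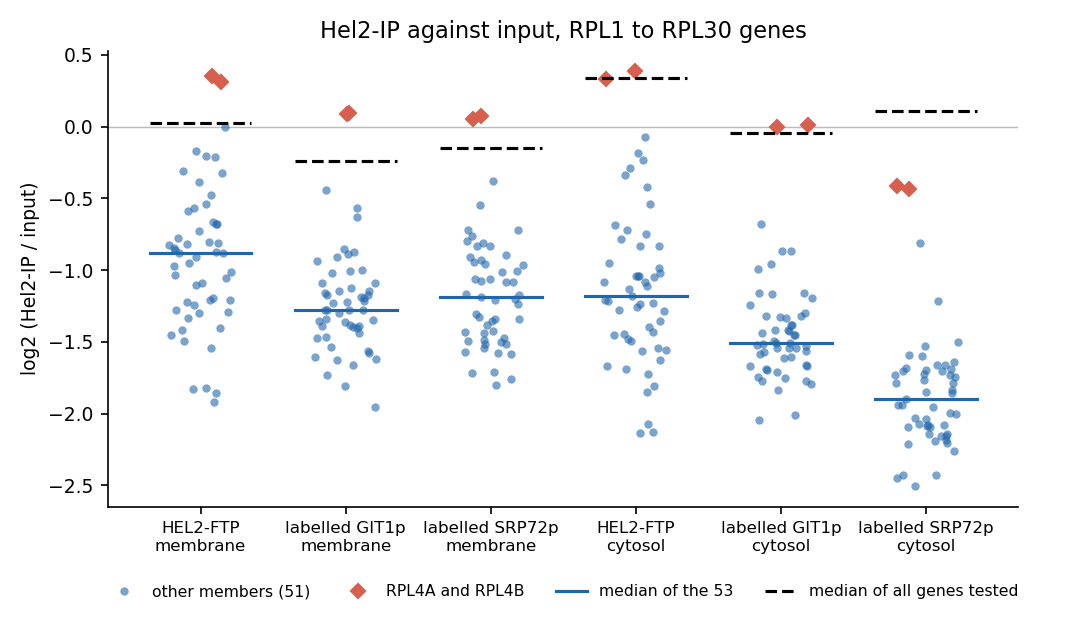
Log2 change between IP and input (y axis) in the 6 comparisons of strain and fraction (x axis), with 1 point for each of the 53 members, RPL4A and RPL4B as diamonds, solid lines at the members' median and dashed lines at the median of all genes tested. The members' medians lie between -0.88 and -1.89, below the dashed line in each comparison, and RPL4A and RPL4B stand above the other members throughout.

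The genes for proteins that line the polypeptide exit tunnel or surround its mouth included the highest members in all 6 comparisons, and the lowest in the GIT1p membrane fraction and the SRP72p cytosol. Rpl4 is a tunnel protein whose long extension reaches into the subunit core. Its genes are RPL4A (YBR031W, chromosome II 300166 to 301254, RefSeq assembly R64) and RPL4B (YDR012W, chromosome IV 471853 to 472941). RPL4A had 3626 and 3576 RPM in the HEL2-FTP membrane IPs, against 2919 and 2725 RPM in the inputs. It had 3986 and 4408 RPM in the cytosolic IPs, against 3079 and 3348 RPM in the inputs. Both IPs thus lay above both inputs in each fraction, a log2 change of 0.35 ± 0.06 (SE, n = 2 each; limma, adjusted p = 0.00027) at the membrane and 0.38 ± 0.06 (adjusted p = 0.00012) in the cytosol. RPL4B, whose footprints are largely shared with RPL4A, changed by 0.31 and 0.33 (limma, adjusted p = 0.00056 and 0.00034). These were the 2 members called higher, and their rise depended on the scaling. With each library centred on the median of its genes, RPL4A changed by 0.06 at the membrane (limma, adjusted p = 0.46) and by -0.068 in the cytosol (adjusted p = 0.39), and RPL4B by 0.02 and -0.12.

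In the plasmid strains the IPs did not hold more RPL4 footprints than the inputs by CPM. RPL4A had 1422 and 1269.5 CPM in the GIT1p membrane IPs, against 1749 and 1695 CPM in the inputs, and 1535 and 1583 CPM in the GIT1p cytosolic IPs, against 1976 and 2047 CPM. It had 2043 and 1875 CPM in the SRP72p membrane IPs, against 1939 and 2195 CPM, which overlap. In the SRP72p cytosol it had 1790.0 and 1861 CPM in the IPs, against 2504 and 2614 CPM in the inputs. The fitted changes differ from the CPM ratios because edgeR rescales library totals by the trimmed mean of M values (TMM). They were 0.08 (edgeR, adjusted p = 0.44) in the GIT1p membrane fraction, 0.00 (adjusted p = 0.98) in the GIT1p cytosol and 0.08 (adjusted p = 0.49) in the SRP72p membrane fraction. In the SRP72p cytosol RPL4A fell by 0.43 on the log2 scale (edgeR, adjusted p = 0.00022). The GIT1p membrane value turned with the scaling, to -0.36 on library totals alone (edgeR, adjusted p = 0.0028) and to 0.31 on DESeq2's size factors (adjusted p = 0.0040).

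Rpl25 sits beside the tunnel exit and is a contact site of SRP. RPL25 (YOL127W, chromosome XV 80348 to 81190) lay at the low end in the plasmid strains. It had 193 and 156 CPM in the GIT1p membrane IPs, against 925 and 914 CPM in the inputs, and 203 and 211 CPM in the GIT1p cytosolic IPs, against 1041 and 1107 CPM. It had 388 and 414 CPM in the SRP72p membrane IPs, against 1157 and 1487 CPM, and 267 and 326 CPM in the SRP72p cytosolic IPs, against 1629 and 1682 CPM. No groups overlapped. The log2 change was -1.96 ± 0.12 and -2.01 ± 0.12 in the GIT1p fractions and -1.57 ± 0.12 and -2.43 ± 0.12 in the SRP72p fractions, membrane first (edgeR, largest adjusted p = 1.1e-10). The HEL2-FTP libraries showed RPL25 at 561 and 570.5 RPM in the membrane IPs, against 1108 and 1116 RPM, and 561 and 585 RPM in the cytosolic IPs, against 1308 and 1396 RPM. These were changes of -0.97 and -1.24 (limma, adjusted p = 1.4e-09 and 1.3e-10).

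RPL19A, another gene for a protein near the tunnel exit, had the lowest member value in the SRP72p cytosol. It had 266 and 304 CPM in the IPs, against 1625 and 1722 CPM in the inputs, a change of -2.50 ± 0.10 (edgeR, adjusted p = 9.0e-16). Of the 9 tunnel and exit genes, 6 fell and 2 rose in the HEL2-FTP membrane fraction and 7 fell and 2 rose in the cytosol. The group's median was -0.68 and -0.78 there, -1.39 and -1.54 in the GIT1p fractions and -1.17 and -2.08 in the SRP72p fractions, membrane first. RPL17A, which encodes a tunnel protein, changed by -0.20 (limma, adjusted p = 0.056) at the HEL2-FTP membrane.

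Rpl5 and Rpl11 bind the smallest ribosomal RNA of the subunit and enter the pre-ribosome with it as one particle. All 3 of their genes fell in all 6 comparisons, as did 49 of the 53 members. RPL5 (YPL131W, chromosome XVI 303121 to 304014) fell least of the 3 in each. It had 2269.6 and 2358 RPM in the HEL2-FTP membrane IPs, against 2613 and 2602 RPM in the inputs, and 2596 and 2851 RPM in the cytosolic IPs, against 2952 and 3225 RPM. These were changes of -0.17 (limma, adjusted p = 0.019) and -0.18 (adjusted p = 0.014). RPL5 changed by -0.44 and -0.68 in the GIT1p fractions and by -0.38 and -0.81 in the SRP72p fractions, membrane first (edgeR, largest adjusted p = 0.0014). The 3 genes had a median of -1.40 and -1.56 in the HEL2-FTP fractions.

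The peptidyl transferase centre and subunit core, which hold the catalytic site, had 7 genes. All 7 fell in all 6 comparisons, as most members did. The median was -0.38 in the HEL2-FTP membrane fraction and -0.54 in the cytosol, -1.02 and -1.32 in the GIT1p fractions and -0.76 and -1.59 in the SRP72p fractions. Rpl3 reaches into the catalytic centre. RPL3 (YOR063W, chromosome XV 444686 to 445849) had 3229 and 3450.4 RPM in the HEL2-FTP membrane IPs, against 4085 and 4253 RPM in the inputs. It had 3718 and 4012 RPM in the cytosolic IPs, against 4417 and 4682 RPM in the inputs. The groups did not overlap, and the changes were -0.32 (limma, adjusted p = 0.00032) and -0.24 (adjusted p = 0.0029). RPL3 changed by -0.63 and -0.87 in the GIT1p fractions and by -0.72 and -1.22 in the SRP72p fractions (edgeR, largest adjusted p = 6.9e-06).

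Rpl10 is among the last proteins to join the subunit, in the cytoplasm, and its loop reaches towards the peptidyl-tRNA site. RPL10 (YLR075W, chromosome XII 282927 to 283592) had 1554 and 1686 RPM in the HEL2-FTP membrane IPs, against 2880.2 and 2939.8 RPM in the inputs. It had 1627 and 1831 RPM in the cytosolic IPs, against 3312 and 3702 RPM in the inputs. The IPs lay clearly below the inputs, at -0.85 (limma, adjusted p = 2.3e-07) and -1.02 (adjusted p = 3.4e-08). RPL10 changed by -1.02 and -1.30 in the GIT1p fractions and by -0.76 and -1.53 in the SRP72p fractions (edgeR, largest adjusted p = 3.6e-07). RPL28 (YGL103W, chromosome VII 310967 to 311927), the gene of a core protein at which cycloheximide resistance mutations arise, changed by -0.59 and -0.83 in the HEL2-FTP fractions, by -0.93 and -1.16 in the GIT1p fractions and by -0.54 and -1.59 in the SRP72p fractions.

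The genes for proteins at the subunit interface or joining late, RPL23A, RPL23B, RPL24A, RPL24B, RPL29 and RPL30, fell in all 6 comparisons. Most members did so too. The median of the interface and late-joining genes was the lowest of the 6 structural groups in the HEL2-FTP strain, at -1.69 at the membrane and -1.83 in the cytosol. These genes are short, at 59 to 155 codons, and shorter members tended to fall more. The part of length in the order of the groups was not tested. RPL29 (YFR032C-A, chromosome VI 223258 to 223437) is the shortest member, at 59 codons. It had 143 and 128 RPM in the HEL2-FTP membrane IPs, against 469 and 513 RPM in the inputs, and 137 and 144 RPM in the cytosolic IPs, against 509 and 502 RPM. It changed by -1.86 and -1.85 (limma, adjusted p = 4.5e-11 and 3.6e-11), by -1.40 and -0.87 in the GIT1p fractions and by -1.72 and -1.68 in the SRP72p fractions. RPL30 (YGL030W, chromosome VII 439091 to 439638), whose protein represses the splicing of its own transcript, had 199 and 197 RPM in the HEL2-FTP cytosolic IPs, against 704 and 687 RPM in the inputs. It changed by -1.54 and -1.81 in the HEL2-FTP fractions, by -0.57 and -0.96 in the GIT1p fractions and by -0.83 and -1.69 in the SRP72p fractions.

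Rpl24 joins in the cytoplasm and forms a bridge to the small subunit. RPL24A (YGL031C, chromosome VII 437467 to 437934) had 214 and 267 RPM in the HEL2-FTP cytosolic IPs, against 929 and 1185 RPM in the inputs, a change of -2.13 ± 0.15 (limma, adjusted p = 4.0e-08). RPL24B followed at -2.07. The 4 genes of the stalks, RPL1A, RPL1B, RPL12A and RPL12B, fell in all 6 comparisons, as most members did. The stalks flank the sites where transfer RNAs and elongation factors bind. Medians of the 4 genes ran from -0.82 at the HEL2-FTP membrane to -1.72 in the SRP72p cytosol.

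The remaining 24 members encode proteins of the outer shell, where RNA expansion segments are held. Of these 24, 23 fell in each HEL2-FTP fraction and 24 in each other comparison, with medians of -0.98 and -1.24 in the HEL2-FTP fractions, -1.28 and -1.53 in the GIT1p fractions and -1.32 and -2.01 in the SRP72p fractions. Rpl22 is not essential in yeast, and its protein binds the RPL22B intron. RPL22A (YLR061W, chromosome XII 263194 to 263948) had 206 and 203 RPM in the HEL2-FTP cytosolic IPs, against 912 and 891 RPM in the inputs, which was the lowest member value in that comparison at -2.13 ± 0.04 (limma, adjusted p = 7.6e-13). RPL22B (YFL034C-A, chromosome VI 64243 to 64932) had 37.4 and 37.7 RPM in the same IPs, against 111 and 112 RPM, a change of -1.56 (adjusted p = 7.9e-11). Per kilobase of coding sequence RPL22B had the lowest level of all members in each of the 12 groups, at 304 RPM per kb in HEL2-FTP cytosolic inputs, and the next lowest member there was RPL26A at 936 RPM per kb.

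The level per kilobase ranked the members differently in IPs and inputs. RPL10 was first in all 6 input groups, at 5290 RPM per kb in HEL2-FTP cytosolic inputs. RPL4A or RPL4B was first in 5 of the 6 IP groups, at 3864 and 3751 RPM per kb in the HEL2-FTP cytosolic IPs, and RPL10 was first in the SRP72p membrane IPs at 2187 CPM per kb. The median member had 1107 RPM per kb in the HEL2-FTP cytosolic IPs, against 2720 RPM per kb in the inputs.

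Paralogs could be compared only where the files separate their reads. In the per-codon files many codons of a pair held the same value in both copies, within 0.1% in all 8 libraries, so these footprints stand on both copies. Such codons carried 77.1% of the RPL1A footprints, 65.1% of those of RPL4A, 59.4% of those of RPL11A and 61.2% of those of RPL7A. Of the 23 pairs, 15 had at least 1 such codon and 8 had none: RPL6, RPL13, RPL16, RPL17, RPL22, RPL24, RPL26 and RPL27. Copies of the 15 pairs are therefore not independent measurements. A pair without such a codon may still share some reads, and the count libraries hold no values per codon for this check. The copies of RPL16 and of RPL22 differ in length, so their codons may not have been matched.

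Among the pairs with no codon of equal value, RPL6 differed most between IP and input in the HEL2-FTP cytosol. RPL6A (YML073C, chromosome XIII 123227 to 124172) had 511 and 581 RPM in the HEL2-FTP cytosolic IPs, against 979 and 1184 RPM in the inputs. RPL6B (YLR448W, chromosome XII 1028854 to 1029768) had 815 and 984 RPM in the IPs, against 839 and 1058 RPM in the inputs. RPL6A had a log2 change of -0.98 (limma, adjusted p = 2.1e-07), while the RPL6B groups overlapped, at -0.07 ± 0.12 (adjusted p = 0.55). The ratio of RPL6A to RPL6B ran from 0.590 to 0.988 over the 12 IP libraries and from 1.09 to 1.28 over the 12 inputs, so no IP overlapped an input in any strain. In the plasmid strains both copies fell. RPL6A and RPL6B had log2 changes of -1.81 and -1.39 in the GIT1p membrane fraction and of -1.34 and -0.80 in the SRP72p membrane fraction.

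The RPL26 copies, of a protein near the tunnel exit, differed the other way. RPL26A had 237 and 223 RPM in the HEL2-FTP membrane IPs, against 317 and 324 RPM in the inputs. RPL26B had 228 and 239 RPM, against 563 and 582 RPM. RPL26A changed by -0.48 (limma, adjusted p = 9.4e-06) and RPL26B by -1.29 (adjusted p = 4.1e-10). The ratio of RPL26A to RPL26B was 0.737 to 1.15 over the IP libraries and 0.496 to 0.798 over the inputs, and within each strain and fraction both IPs lay above both inputs. The ratio of RPL22A to RPL22B was 4.10 to 12.8 over the IPs and 6.99 to 11.1 over the inputs. Its IPs lay below their inputs in both HEL2-FTP fractions and in both cytosolic fractions of the plasmid strains, above them in the SRP72p membrane fraction, and overlapped them in the GIT1p membrane fraction. The ratio of RPL17A to RPL17B was 1.26 to 2.09 over the IPs and 1.2 to 1.56 over the inputs. Its IPs lay above their inputs in both HEL2-FTP fractions and in the SRP72p membrane fraction, and overlapped them in the SRP72p cytosol and in both GIT1p fractions.

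**Figure D3:**
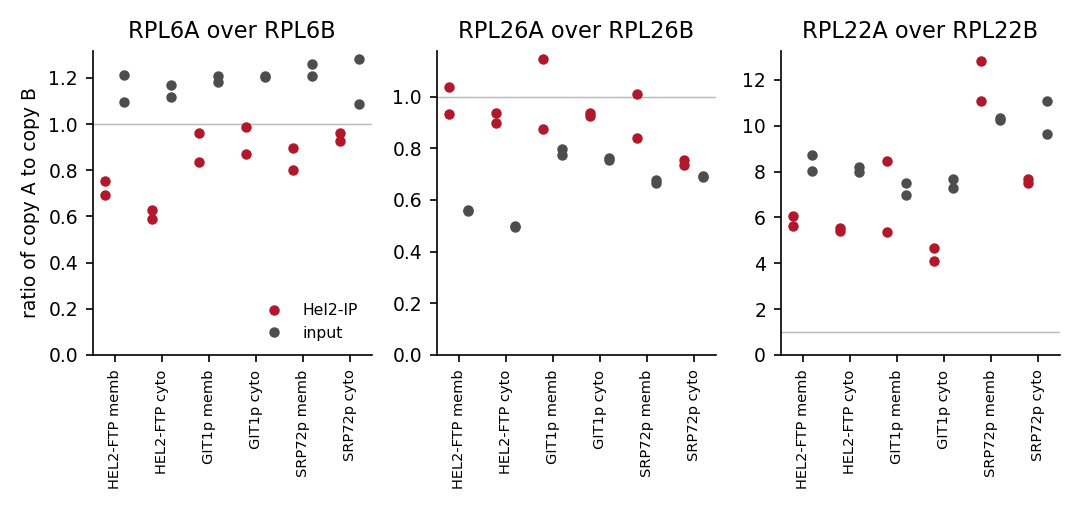
Ratio of the A copy to the B copy (y axes from 0, a separate scale for each pair) for RPL6, RPL26 and RPL22, with 1 point per library and IPs left of inputs within each strain and fraction, and a grey line at a ratio of 1. RPL6 lies at 0.590 to 0.988 in IPs and at 1.09 to 1.28 in inputs.

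Members with longer coding sequences tended to have smaller falls, to a degree that differed between the comparisons. The HEL2-FTP libraries differ from the others in unit, scaling and test as well as strain, and these cannot be told apart. Across the 53 members, which share their libraries and are not independent, the log2 change correlated with coding length at a Pearson r of 0.68 and a Spearman rho of 0.55 in the HEL2-FTP membrane fraction and 0.72 and 0.59 in the cytosol. Genes other than ribosomal protein genes showed a like relation, with a rho of 0.59 and 0.64 over 5393 genes. In the SRP72p cytosol r was 0.66 and rho 0.37 for members, and rho was 0.52 for 5547 other genes. The order by length was weakest in the GIT1p cytosol, at an r of 0.55 and a rho of 0.26 for members, against a rho of 0.45 for other genes.

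Members also lay below other genes of like length in most cases. For the 24 members of 151 to 200 codons the median change was -1.27 in the HEL2-FTP cytosol, against -0.68 for 361 other genes of that length. In the SRP72p cytosol it was -2.03 against -0.96 for 368 genes. Of all 53 members, 38 lay below the median of other genes of their length class at the HEL2-FTP membrane and 47 in the HEL2-FTP cytosol. The count was 49 and 51 in the GIT1p fractions and 49 and 53 in the SRP72p fractions, membrane first. The median distance ran from -0.15 at the HEL2-FTP membrane to -1.03 in the SRP72p cytosol. The 33 members whose genomic span exceeds the coding sequence by over 50 bases, as with an intron, had a median change of -1.22 in the HEL2-FTP cytosol, against -1.03 for the other 20, which were longer, at a median of 204 codons against 172.

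**Figure D4:**
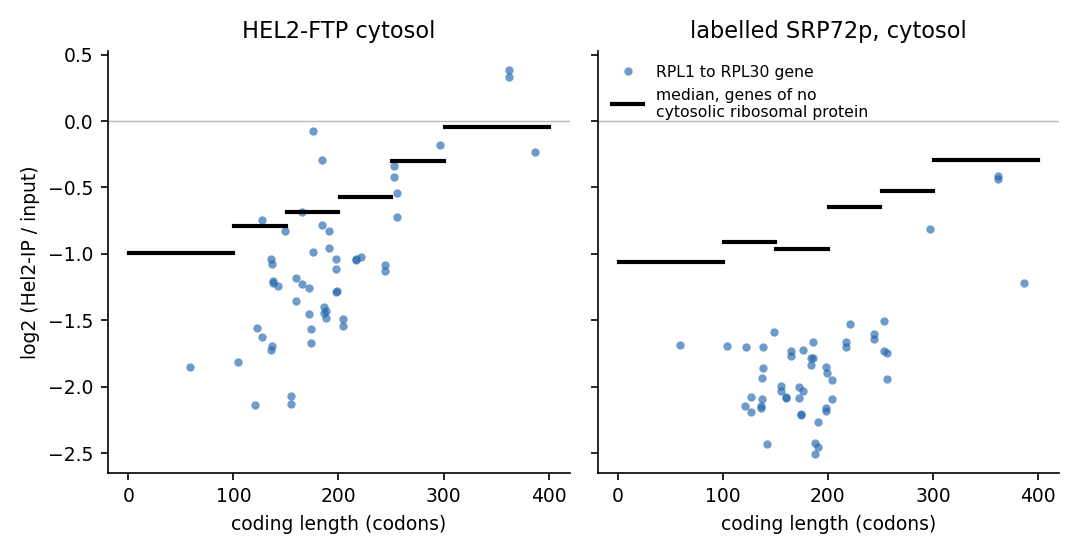
Log2 change between IP and input (y axis) against coding length in codons (x axis) for the 53 members (points) in the HEL2-FTP cytosol (left) and the SRP72p cytosol (right), with bars at the median of genes that encode no cytosolic ribosomal protein in each length class. In the class of 151 to 200 codons the members' median is -1.27 against -0.68 in the left panel and -2.03 against -0.96 in the right panel.

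Other gene lists gave the setting for these values. In the HEL2-FTP cytosol 54 of 56 small-subunit protein genes fell and 1 rose, with a median of -1.21. All 28 large-subunit protein genes outside RPL1 to RPL30 fell, with a median of -1.68, from -0.46 for RPP0, the gene of the stalk scaffold, to -2.48 for RPL37A. Of 34 mitochondrial large-subunit genes, whose proteins belong to another ribosome, 31 fell and 2 rose, with a median of -1.04. Of 5 regulators tested, 4 rose, led by SFP1 at 2.45, and RAP1 fell by 0.17. Of 9 elongation factor genes 3 rose and 5 fell, from -0.80 for TEF1 to 0.81 for YEF3. Of 5 genes for dedicated chaperones and escorts, 4 fell, led by ACL4, the Rpl4 chaperone, at -0.996, and SYO1, the importer of Rpl5 and Rpl11, rose by 0.99. The 10 membrane markers all rose in the cytosolic IPs, with a median of 1.27, and summed to 2288 to 2332 RPM there. In the GIT1p cytosolic IPs they summed to 9796 to 11148 CPM, against 2478 to 2540 CPM in the inputs, and in the SRP72p cytosolic IPs to 5417 to 5832 CPM, against 1573 to 1770 CPM. The part of this rise in the lower share of the members was not tested.

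Total footprints of the members were lower in membrane than in cytosolic inputs, by small amounts. In the HEL2-FTP strain 40 of 53 were called lower and none higher, where 32.9% of all genes were called lower and 21.2% higher, with a median of -0.27 against -0.13 over all genes. RPL8A had 1094 and 1053 RPM in the membrane inputs, against 1392 and 1410.1 RPM in the cytosolic inputs, the lowest member value at -0.38 ± 0.04 (limma, adjusted p = 1.5e-05). RPL22B followed at -0.37 and RPL27A at -0.35. At the other end RPL29 changed by -0.04 (limma, adjusted p = 0.57), RPL2A by -0.09 (adjusted p = 0.17) and RPL17B by -0.11 (adjusted p = 0.21). Of the single genes, RPL5 fell by 0.24, RPL10 by 0.27, RPL25 by 0.28, RPL28 by 0.21 and RPL30 by 0.28, and RPL3 had -0.13 (limma, adjusted p = 0.096). Without the second cytosolic input 26 members were called lower.

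In the libraries labelled GIT1p only RPL23A, RPL23B and RPL30 were called lower in the membrane inputs, where 0.315% of all genes were called lower and 16.8% higher. RPL23A had 623 and 619 CPM in the membrane inputs, against 839 and 850.3 CPM in the cytosolic inputs, at -0.32 (edgeR, adjusted p = 0.018). The median member value was -0.18 against -0.02 over all genes, and no other scaling run left the count near 3: it was 35 on DESeq2's size factors and 14 on library totals. Leaving out 1 library in turn gave 0 or 1. In the libraries labelled SRP72p 32 members were called lower (6.41% of all genes, with 16.3% called higher), with a median of -0.31 against -0.04. That count moved with each library. It was 5 without the first membrane input and 49 without the second, and 52 without the first cytosolic input and 49 without the second.

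Within the HEL2-FTP strain 16 of the 53 members fell less in the IPs at the membrane than in the cytosol. The test of the difference between the IP/input ratios called these 16 higher at the membrane and none lower, where 3.27% of all genes were called higher and 25.9% lower. The members' median difference was 0.22 against -0.11 over all genes. Other genes of 151 to 200 codons had a median of 0.05, against 0.19 for the 24 members of that length. Of the 53 members, 52 lay above the median of other genes of their length class and 1 below, at a median distance of 0.16. RPL26B had 0.34 ± 0.08 (limma, adjusted p = 0.0068), RPL22A 0.31 ± 0.06 (adjusted p = 0.0018), RPL25 0.26 (adjusted p = 0.012) and RPL22B 0.26 (adjusted p = 0.033). RPL14B had the highest value, 0.35, with an adjusted p of 0.11 by limma. The lowest were RPL3 at -0.08 (adjusted p = 0.51), RPL4A at -0.03 and RPL4B at -0.02. Without the first cytosolic IP 4 members were called, without the second membrane IP 6, without either membrane input 8, and with each library centred on its median 37. With pairs summed 8 of 30 families were called higher.

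The strains were compared in the inputs and then in the IP/input ratio. In cytosolic inputs 50 of 53 members were lower in libraries labelled GIT1p than in those labelled SRP72p, where 12.7% of all genes were called lower and 13.8% higher. Their median was -0.63 against 0.01 over all genes. RPL30 had 496 and 439 CPM in GIT1p, against 880.0 and 780.0 CPM in SRP72p, the lowest value at -1.02 ± 0.09 (edgeR, adjusted p = 8.7e-09). RPL29 had 467 and 483 CPM, against 791 and 857 CPM, at -0.98 (edgeR, adjusted p = 1.2e-06), and RPL19B was also at -0.98. RPL25 fell by 0.81, RPL28 by 0.76, RPL5 by 0.56, RPL3 by 0.53 and RPL10 by 0.50. The 3 members not called were RPL24B at -0.75 (edgeR, adjusted p = 0.058), RPL14B at -0.37 (adjusted p = 0.051) and RPL22B at -0.18 (adjusted p = 0.42). RPL22B had 91.6 and 92.0 CPM in GIT1p, against 81.5 and 99.7 CPM in SRP72p, which overlap, while its paralog RPL22A fell by 0.63 (adjusted p = 0.00018).

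In membrane inputs 48 members were lower in GIT1p, where 6.93% of all genes were called lower and 12.2% higher, with a median of -0.48 against 0.05. RPL29 fell by 0.84, RPL30 by 0.82 and RPL21A by 0.77 on the log2 scale. RPL22B was at -0.04 (edgeR, adjusted p = 0.91). Without the second SRP72p membrane input 28 members were called lower, without the first 51, and without the first GIT1p membrane input 31. All 56 small-subunit protein genes were lower in the cytosolic inputs too, with a median of -0.64, and 26 of 28 other large-subunit genes, at -0.83. Of 9 elongation factor genes 8 were lower, with EFB1 at -1.09. HMO1, a regulator of ribosomal protein genes, had -1.13 (edgeR, adjusted p = 4.6e-07), and 4 of 34 mitochondrial large-subunit genes were lower. Since LEU2 and HIS3 did not follow the strain labels, the direction is that of the labels and not of a checked genotype.

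**Figure D5:**
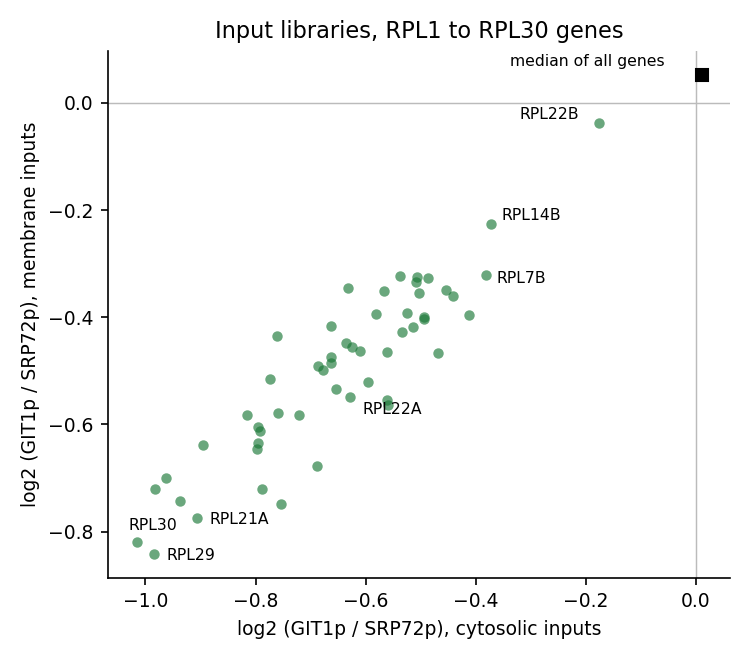
Log2 ratio of inputs labelled GIT1p over inputs labelled SRP72p, with cytosolic inputs on the x axis and membrane inputs on the y axis, for the 53 members (circles) and the median of all genes (square). All members lie below 0 on both axes, from RPL22B at -0.18 and -0.04 to RPL30 at -1.02 and -0.82.

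The IP/input ratio in the cytosol fell less in GIT1p than in SRP72p for 26 members, where 9.59% of all genes were called higher and 3.05% lower. The median difference of the 53 members was 0.42 against 0.06 over all genes. The part of coding length in this gap was not tested. Other genes of 151 to 200 codons had a median of 0.28, against 0.48 for the 24 members of that length. Of the 53 members, 41 lay above the median of other genes of their length class and 12 below, at a median distance of 0.20. RPL9B, the gene of an outer protein near the stalk base, had 265 and 237 CPM in GIT1p IPs, against 890.1 and 832 CPM in GIT1p inputs, and 224 and 246 CPM in SRP72p IPs, against 1242 and 1100.4 CPM in SRP72p inputs. The difference of the ratios was 0.84 ± 0.14 (edgeR, adjusted p = 0.00023), and the IP levels of the strains overlapped. RPL29 had 0.81 (adjusted p = 0.0022), RPL15A 0.79 (adjusted p = 0.00084), RPL30 0.73 (adjusted p = 0.00053), RPL22B 0.71 (adjusted p = 0.046) and RPL28 0.42 (adjusted p = 0.040), all by edgeR. RPL3, RPL5, RPL10 and RPL25 had 0.35, 0.13, 0.23 and 0.42 and were not called, and RPL6A was lowest at -0.01 (adjusted p = 0.98). On library totals alone 5 members were called, and without the first SRP72p cytosolic IP 10. The count was 11 or 14 without the first or the second GIT1p cytosolic input, and 12 without the second GIT1p cytosolic IP.

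At the membrane 1 member, RPL15B, was called in that difference, at 0.70 ± 0.16 (edgeR, adjusted p = 0.014), where 1.66% of all genes were called higher and 1.68% lower. It had 162 and 136 CPM in the GIT1p IPs, against 406 and 403 CPM in the GIT1p inputs, and 177 and 176 CPM in the SRP72p IPs, against 538 and 744 CPM in the SRP72p inputs. The 2 SRP72p inputs lie far apart. The members' median was -0.06, equal to that of all genes, and RPL6B was lowest at -0.60 (adjusted p = 0.071). With library totals 18 members were called lower, and without the second SRP72p membrane input 9 were lower and 1 higher.

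The HEL2-FTP files also place the footprints within each gene. For 2255 genes, 52 members among them, the footprints at codons 6 to 60 were set against those downstream, which start at codon 61 and leave out the last 5 codons. RPL29 is too short for this test. At the membrane 12 members had a lower and 2 a higher ratio in the IPs than in the inputs, where 7.72% of all genes were called lower and 43.7% higher. In the cytosol 17 were lower and 2 higher, where 9.58% of all genes were called lower and 41.6% higher. The members' median was -0.15 in both fractions, against 0.29 and 0.26 over all genes. The value rose with coding length in other genes, at a rho of 0.55 at the membrane and 0.53 in the cytosol over 2126 genes. Most members are short, but rho was only 0.08 at the membrane and 0.04 in the cytosol among the 52. The part of length in the members' values was not tested. Other genes of 151 to 200 codons had a median near 0, at -0.02 in each fraction, against -0.15 at the membrane and -0.20 in the cytosol for the 24 members of that length. The 7 members of 201 to 250 codons went the other way, at 0.16 against 0.00 at the membrane and 0.10 against -0.07 in the cytosol. Over all members tested the median distance from other genes of their length class was -0.14 at the membrane and -0.17 in the cytosol. At the membrane 38 members lay below the median of their length class and 14 above, and in the cytosol 34 below and 18 above.

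RPL21A, the gene of an outer shell protein, had 31.8% and 28.1% of the footprints in both windows at codons 6 to 60 in the cytosolic IPs, against 42.4% and 39.8% in the inputs, a log2 change of -0.71 ± 0.13 (limma, adjusted p = 0.0014). RPL16A had 9.15% and 9.79% in the IPs, against 13.8% and 15.1% in the inputs, at -0.68 (adjusted p = 0.0011). RPL10 had 22.0% and 19.0%, against 30.1% and 25.8%, at -0.59 (adjusted p = 0.0064). None of these groups overlapped. RPL1A had 25.3% and 23.3%, against 20.0% and 18.7%, at 0.42 (adjusted p = 0.013), and shares most of its footprints with RPL1B at 0.41. At the membrane RPL16A, RPL21A and RPL20A were lowest, at -0.65, -0.61 and -0.60, and RPL17A and RPL3 were called higher at 0.42 (limma, adjusted p = 0.011) and 0.39 (adjusted p = 0.030). The RPL17 copies, of a tunnel protein, moved apart in the cytosol, with RPL17A at 0.24 (adjusted p = 0.099) and RPL17B at -0.42 (adjusted p = 0.023). The effect of 1 library was visible here: 12 members were called in the cytosol without the first IP. At the membrane 7 were called without the second input, 8 without the first IP and 9 without the second IP.

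With each coding sequence divided into 5 equal sections, the first held 8.04% to 8.23% of a member's footprints on average in the 4 IPs, against 8.92% to 9.03% in the 4 inputs. Among the 33 members with a longer genomic span it held 7.10% to 7.36% in IPs, against 8.34% to 8.76% in inputs. Among the other 20 it held 9.26% to 9.74% in IPs and 9.48% to 9.88% in inputs, which overlap with the fractions pooled. Within the cytosol both IPs of these 20 members lay below both inputs, while at the membrane the IPs and inputs overlapped. The fall between IP and input was present along the whole sequence. The members' median log2 ratio in the cytosol was -1.31, -1.30, -1.08, -1.10 and -1.19 from the first to the last section. For RPL4A the 5 sections of the cytosolic ratio were 0.36, 0.30, -0.05, 0.64 and 0.58, so the middle section did not show the rise of the others. Footprints at the stop codon or after it made up 0.702% to 0.817% of the members' total in IPs, against 1.23% to 1.30% in inputs. The stop codon was not separated from the positions after it, so these values do not give the level after the stop codon alone. No value over all genes is set beside them.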

How the data were processed

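Footprint libraries of Saccharomyces cerevisiae were used as deposited. The submitters' processing notes name CASAVA 1.8, UMI-tools, Bowtie2, TopHat and the build sacCer3, and the role of each is not given in the sources used here. The RPM values per codon of the HEL2-FTP files are the authors' deposited values, and the depth behind them is unknown. The gene counts of the other files are the authors' deposited counts. Whether molecular identifiers were collapsed is not given in the sources used here. RPM was summed over each coding sequence and tested with limma 3.58.1 (trend) on log2(RPM + 0.5) after genes averaging below 1 RPM were left out. Counts were tested with edgeR 4.0.16 (TMM, filterByExpr, robust quasi-likelihood F test), in R 4.3.3, and CPM are counts per 1000000 of the library total. Groups share 1 estimate of the spread, and a gene is called at an adjusted p below 0.05 over all genes. Standard errors of edgeR's changes are the change divided by the square root of F and are approximate. The position test used limma on genes with at least 5 RPM in each window. The limma and edgeR tests of whole genes were each run on simulated data with 200 genes changed by 1 on the log2 scale, up or down. There edgeR recovered 85.5% of them with 4.47% of calls false, and limma 100% with 5.21%. Far more genes were called in the real IP comparisons, so these runs do not check the scaling there. Alternatives were DESeq2 1.42.0, other scalings, pseudocounts and filters, a replicate block, summed pairs, and each library left out.

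The members and lists were chosen with earlier results of these data known. Genes named with values are the single genes, the 3 highest and 3 lowest members and the pair differing most in each comparison, RPL22A and RPL22B, and the extremes of other lists. RPL17A and RPL24B, in short lists of members not called, the RPL1, RPL7, RPL11 and RPL17 pairs beside shared codons, and SYO1 and ACL4 were named after their values were seen. RPP1, a ribonuclease P subunit caught by a name pattern, was left out of the other large-subunit genes. Locations are from the RefSeq assembly R64. With 2 against 2 libraries an exact permutation test cannot go below 0.333, so none is given.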

Additional observations from a re-analysis of the deposited data

Results flagged for a closer look

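The test of the difference between the IP/input ratios of the fractions drew attention to 16 members in the HEL2-FTP strain, all higher at the membrane than in the cytosol. The named members among them were RPL22B at 0.26, RPL25 at 0.26, RPL22A at 0.31 and RPL26B at 0.34 on the log2 scale. The same kind of test between the libraries labelled GIT1p and SRP72p called 26 members in the cytosol, all with a higher ratio in GIT1p. Among them were RPL28 at 0.42, RPL22B at 0.71, RPL30 at 0.73, RPL15A at 0.79, RPL29 at 0.81 and RPL9B at 0.84. At the membrane that test called 1 member, RPL15B, at 0.70.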

How the results depend on the processing

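The members' median stayed lower in the IPs than in the inputs in all 6 comparisons under every alternative run. Over the alternatives 140 counts of called members stayed within 1.5 times the reported count, 48 moved further and 4 changed direction. Of the values of named genes 2296 kept their side of the threshold, 108 lost the call and 158 gained one. Another 5 changed sign while called in the main or the alternative fit. Changes of sign in values called in neither fit are counted among the 2296. The cause of these moves was not tested. For the difference between HEL2-FTP fractions, centring each library on its median gave 37 members and a replicate block 39. For SRP72p inputs, membrane against cytosol, DESeq2's size factors gave 51, library size alone 19, TMM without ribosomal protein genes 51 and DESeq2 51. For GIT1p inputs the same settings gave 35, 14, 50 and 31, testing every gene gave 14, and leaving out both SRP72p membrane inputs, chosen after seeing the data, gave 5. For the cytosolic difference between GIT1p and SRP72p, library size alone gave 5 and every gene 11. For the membrane difference, DESeq2's size factors, TMM without ribosomal protein genes and DESeq2 gave 2 each, library size alone 18 (all lower), every gene 5 (1 higher, 4 lower), the replicate block 4 (1 higher, 3 lower) and summed pairs 0. For the position test at the membrane, a first window of codons 6 to 40 gave 9. RPL4A turned to -0.068 and RPL4B to -0.12 in the HEL2-FTP cytosol with centred libraries, and on library size alone RPL4B turned to -0.35 in the GIT1p cytosol and RPL4A and RPL4B to -0.36 and -0.35 at the GIT1p membrane. Centring moved the median of all genes by -0.45 and -0.29 in the HEL2-FTP cytosol and membrane fraction, and took the share of higher calls among all genes called in the cytosol to 46.9%, against 60.1%.

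Leaving out each library in turn gave 50 to 52 called members in the HEL2-FTP cytosol and 50 to 51 at the membrane, 53 in the SRP72p cytosol and 51 in each of the SRP72p membrane, GIT1p cytosol and GIT1p membrane IP comparisons. It gave 26 to 46 for HEL2-FTP inputs, 4 to 19 for the difference between HEL2-FTP fractions, 5 to 52 for SRP72p inputs and 0 to 1 for GIT1p inputs. Between GIT1p and SRP72p it gave 47 to 52 for cytosolic inputs, 28 to 51 for membrane inputs, 10 to 29 for the cytosolic difference and 0 to 10 for the membrane difference. For position it gave 12 to 18 in the cytosol and 7 to 11 at the membrane. The replicate numbers pair nothing by the labels, and the main fits use no pairing. After removal of group means, same-numbered IPs and inputs correlated at 0.42 in the HEL2-FTP cytosol and 0.28 at the membrane. In the other strains they correlated at -0.08 to 0.03. The lowest value of any comparison, -0.43, was that between the GIT1p and SRP72p membrane inputs. The replicate block gave 52 members in each HEL2-FTP IP comparison, 51 for HEL2-FTP inputs, 53 and 51 in the SRP72p cytosol and membrane fraction, 51 in each GIT1p fraction, 39 for SRP72p and 4 for GIT1p inputs, 52 and 51 for GIT1p against SRP72p in cytosolic and membrane inputs, 29 for the cytosolic difference, and 25 and 21 for position in the cytosol and at the membrane. A lone library left in a group was assumed to vary like the others. Depth limited RPL22B most, at 41 counts or more per library.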
